A study of Mus musculus with 54 samples.

Results

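H3K4me3, trimethylation of lysine 4 on histone H3, was compared between mesoderm-stage cultures (MES) and cardiomyocyte-stage cultures (CM) derived from mouse embryonic stem cells. The members are the enriched regions of the 2 MES and 2 CM libraries on chromosomes 1 to 19 and X. Regions that overlapped by at least 1 base were joined over the 4 lists, which gave 31575 joined regions. A region was gained when neither MES library and both CM libraries called it, which held for 1089 regions, 3.45% of the joined set. A region was lost when both MES libraries and neither CM library called it, which held for 1025 regions, 3.25%. A region was kept when all 4 libraries called it, which held for 17039 regions, 54%. The other 12422 regions had mixed calls, and 9980 of them were called in 1 library only. The lists of all targets and stages together hold 1590704 regions on these chromosomes.

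The cells were of the 129/Ola strain in every group, with no genetic change named in the labels. Stem cells (ESC, day 0) were grown as embryoid bodies, aggregated again with VEGF, Activin A and BMP4, and then plated with VEGF, basic FGF and FGF10. MES libraries were taken at day 4, cardiac precursor libraries (CP) at day 5.3 and CM libraries at day 10. Each library comes from a whole culture, so a smaller share of cells with a mark and less mark per cell cannot be told apart. Beside H3K4me3, the study profiled H3K27ac, H3K27me3, H3K4me1 and RNA polymerase II phosphorylated at serine 5 of its tail repeats (RNAPII Ser5P), each in 1 to 3 libraries a stage. The H3K27ac CM libraries carry a cell type label of ESC, while their titles, sources and times say CM, and they were read as CM. The cell types were not checked against marker genes here, because positions are in build mm9 and no annotation of that build was used. Regions are therefore given by position, without gene names.

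H3K4me3 is written by SET1 and MLL complexes and sits over the start sites of active and poised genes. H3K27ac marks active promoters and enhancers, H3K4me1 marks enhancers and the flanks of promoters, and H3K27me3 is the mark of Polycomb repression. RNAPII Ser5P is the form of the polymerase found at and just after initiation. A promoter that carries both H3K4me3 and H3K27me3 is called bivalent and is usually silent or weakly transcribed.

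The 4 H3K4me3 lists differed in size. They held 28880 and 22206 regions in MES replicates 1 and 2, and 25650 and 21751 in CM replicates 1 and 2. Their median widths were 850, 1300, 1000 and 1025 bases, and the lowest listed peak heights were 21, 26, 21 and 20. Replicate 1 had the longer list at both stages, and regions called in MES replicate 1 alone (5468) or CM replicate 1 alone (3025) outnumbered those called in MES replicate 2 alone (846) or CM replicate 2 alone (641). The number of gained and lost regions rose when a library was left out, which also loosens the rule, because fewer lists have to agree. Without CM replicate 2 the gained count was 4237, and without CM replicate 1 it was 1917. Without MES replicate 1 it was 1563, and without MES replicate 2 it was 1328. The lost count was 7829 without MES replicate 2, 2051 without MES replicate 1, 1975 without CM replicate 1 and 1059 without CM replicate 2. The kept count moved less, to between 17096 and 17989.

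Gained and lost regions were narrow and low, and kept regions were wide and high. The joined region had a median width of 375 bases at gained, 575 bases at lost and 1825 bases at kept regions, and 63.4%, 42.4% and 2.12% of them were under 500 bases. Peak heights have no common scale across lists, so each was read as a percentile within its own list. Gained regions had median percentiles of 25.2 and 13.4 in CM replicates 1 and 2, and lost regions 31.7 and 10.9 in MES replicates 1 and 2. Kept regions had medians of 70.3 and 60.4 in MES and 66.4 and 60 in CM. No more than 2.54% of gained or lost regions lay above the median of the list that called them. These are the values of the lists that set the classes, and they are given as a description.

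Regions just outside the classes had heights of the same order. Regions called in CM replicate 1 alone had a median percentile of 10.3, and regions called in CM replicate 2 alone 5.72. The 463 regions called in both CM libraries and MES replicate 1 had medians of 30.0 and 16.8 in CM replicates 1 and 2. The 937 regions called in both MES libraries and CM replicate 1 had medians of 38.8 and 15.5 in MES replicates 1 and 2. Gained regions thus lay between those called in 1 CM library and those that also had an MES call.

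**Figure D1:**
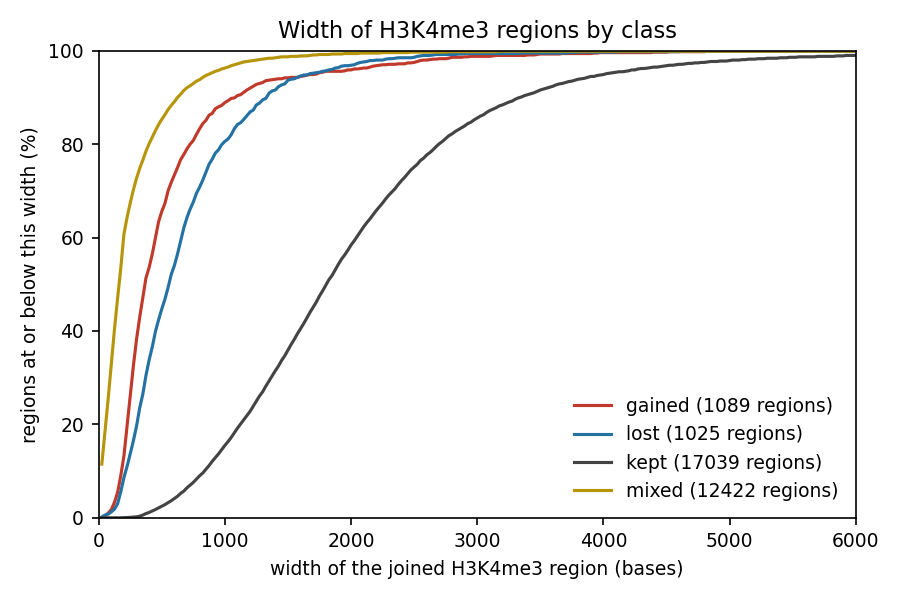
Cumulative share of regions (y axis, percent) at or below a width (x axis, bases) for gained, lost, kept and mixed H3K4me3 regions. The median widths are 375 bases for gained, 575 for lost and 1825 for kept regions, and the mixed regions, with a median of 175 bases, are the narrowest.

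A small number of gained regions were as tall and as wide as kept ones. The highest was chr16:38362226-38366625, 4400 bases long, with peak heights of 218 and 196 in CM replicates 1 and 2, at the 82.4th and 93.0th percentile of their lists. It was already called in both CP libraries, with heights of 289 and 113 and widths of 4150 and 3700 bases. H3K27ac was called there in 1 of 2 MES and in both CP and both CM libraries, and RNAPII Ser5P in both CP and both CM libraries but in neither MES library. The longest gained region was chr14:55579301-55585500, 6200 bases long, with CM heights of 166 and 134 and CM widths of 6200 and 5775 bases. In CP its heights were 115 and 23 and its widths 3825 and 950 bases, so in both replicates the CP call was narrower than the CM call. H3K27ac and RNAPII Ser5P were each absent from MES and called in both replicates at CP and at CM.

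A second long gained region lay on the same chromosome at chr14:55608901-55613425, with widths of 2725 and 1425 bases in CP and 4150 and 4100 bases in CM. The region at chr17:82133301-82138125 had widths of 875 and 2100 bases in CP and 2275 and 4475 bases in CM, with heights of 85 and 60 in CP and 143 and 190 in CM. The region at chr19:36190776-36194450 was called later, in CP replicate 1 only with a width of 450 bases, and in CM with widths of 3400 and 3600 bases. These 3 regions had H3K27ac in no MES library and in both CM libraries, and RNAPII Ser5P in no MES library and in both CM libraries.

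Of the 8 highest gained regions, all had H3K27ac in both CM libraries and 7 had H3K4me3 in both CP libraries. RNAPII Ser5P was in both CM libraries at 7 of the 8. Over all joined regions these shares were 42.7%, 57.8% and 17.4%. The exception, chr5:51943176-51945350, had CM heights of 148 and 124 and no RNAPII Ser5P call at any stage. H3K27me3 was in no library of any stage at these 8 regions. The region at chr9:50559076-50562950 had H3K4me3 in both ESC libraries, in neither MES library and in both CP and CM libraries, so its calls were interrupted at MES.

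The tallest lost region was chr2:84975301-84981325, also the longest at 6025 bases, with peak heights of 256 and 350 in MES replicates 1 and 2 and widths of 4075 and 6025 bases. It had no H3K4me3 call in ESC, heights of 175 and 85 in CP and no call in CM. H3K27ac was called in both MES and both CP libraries and in no ESC or CM library, and RNAPII Ser5P in the 2 MES libraries alone. H3K4me1 stayed in all 3 CM libraries after H3K4me3 and H3K27ac were no longer called. The region at chr3:127247251-127250600 had heights of 147 and 327 in MES, a single call of 75 bases in CP replicate 1, and H3K4me1 and H3K27ac calls in no CM library. The region at chr7:148153426-148158050 had widths of 3900 and 4250 bases in MES and of 775 and 500 bases in CP.

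Of the 8 highest lost regions, 6 were called in both ESC libraries, H3K27ac was in both MES libraries at 5, and RNAPII Ser5P was in both at 2. Over all joined regions these shares were 66.4%, 50.3% and 31.6%. At chr2:19373501-19374675, H3K27me3 was called in all 3 MES, all 3 CP and all 3 CM libraries, next to MES H3K4me3 heights of 178 and 185. The long region chr2:33484201-33487925 also had H3K27me3 in every MES, CP and CM library, while its H3K27ac, in both MES libraries, was gone from CP and CM. At chr2:165709326-165713450, H3K27ac was called in both libraries of all 4 stages, although H3K4me3 was no longer called in CM. The region at chr17:56381026-56381650, 625 bases long with MES heights of 142 and 188, had no H3K27ac, RNAPII Ser5P or H3K27me3 call in any library.

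**Figure D2:**
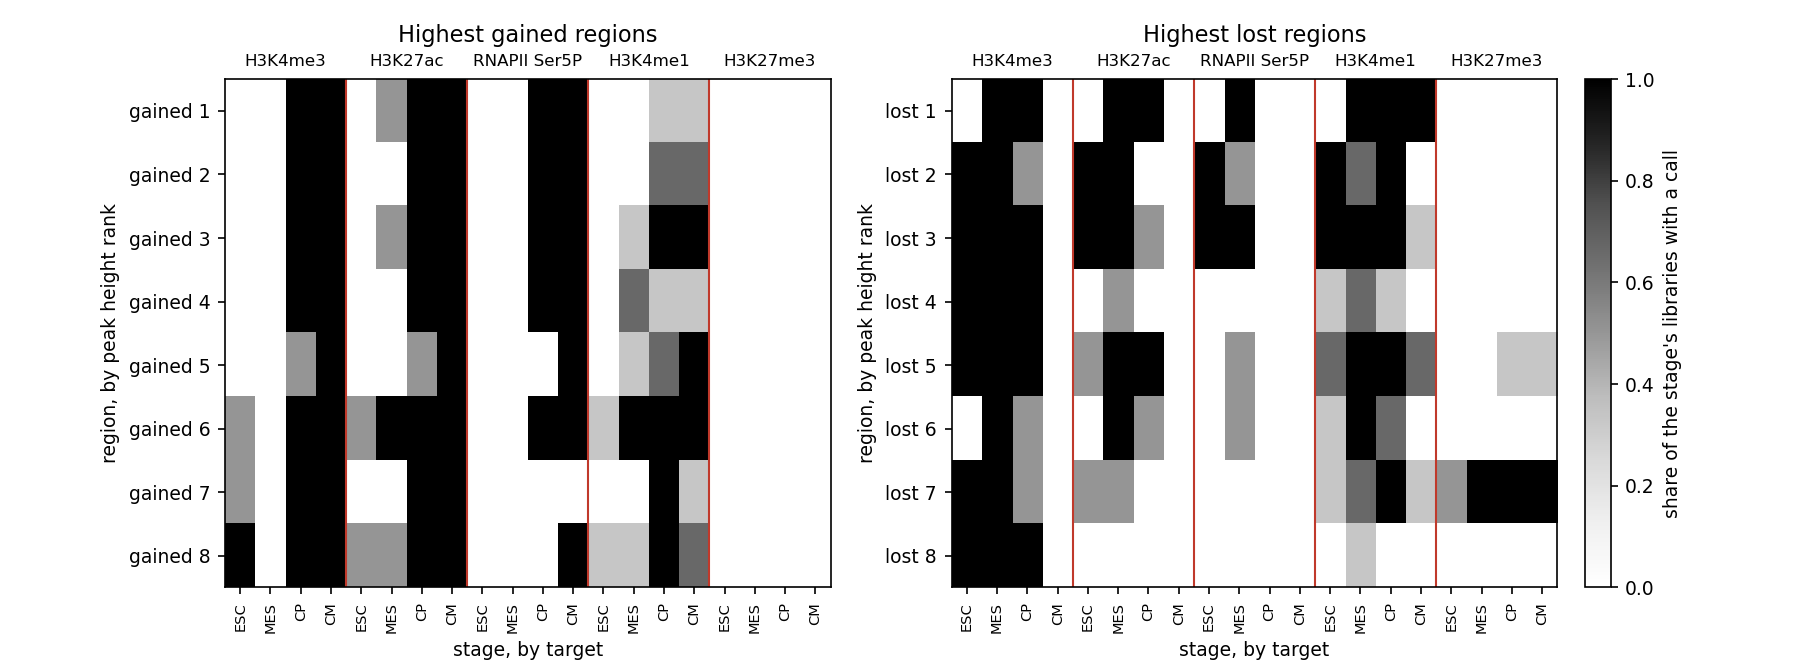
Calls at the 8 gained regions highest in CM (left) and the 8 lost regions highest in MES (right), in rows ordered by mean peak height percentile. Columns are the stages within each of 5 targets, and the grey scale is the share of that stage's libraries with a call, from 0 (white) to 1 (black). H3K27me3 is blank at all 8 gained regions and filled at lost region 7 from MES to CM.

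The CP and ESC libraries were not used to define the classes, and they place the change in time. Over all joined regions, 57.8% were called in both CP libraries and 28.6% in neither. At gained regions 211 (19.4%) were called in both, 353 (32.4%) in 1 and 525 (48.2%) in neither. At lost regions 180 (17.6%) were still called in both, 473 (46.1%) in 1 and 372 (36.3%) in neither. At kept regions 97.6% were called in both CP libraries.

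The 2 CP libraries disagreed on the intermediate share. CP replicate 1 called 50.2% of gained and 62.9% of lost regions, and CP replicate 2 called 20.9% and 18.3%, with lists of 27732 and 21264 regions. Over all joined regions they called 70.9% and 58.3%. The share of regions with the CM state at day 5.3 therefore depends on the library. With CP replicate 2 left out the shares called in CP were 50.2% and 62.9%, in place of 19.4% and 17.6% for both. Of the 399 gained regions of at least 500 bases, 132 (33.1%) were called in both CP libraries and 149 (37.3%) in neither, against 88.3% and 4.03% of all joined regions of that length.

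Most gained regions were also uncalled in stem cells. Of the 1089 gained regions 709 (65.1%) had no ESC call and 244 (22.4%) had both, against 26.6% and 66.4% over all joined regions. Mixed regions, which were also narrow and low, had 58.6% with no ESC call and 28% with both. The gained shares were thus nearer those of mixed regions than those of all joined regions. At kept regions 98% had both ESC calls. Of the 1025 lost regions 549 (53.6%) had both ESC calls and 317 (30.9%) had none. The 244 gained regions called in both ESC libraries and in neither MES library were called at day 0, not at day 4 and again at day 10, and 73 of them were also called in both CP libraries. Among lost regions, 187 (18.2%) were called in no ESC and no CP library, so within these H3K4me3 lists they were seen at MES only. Joint ESC and CP calls were not counted over all joined regions, so these joint counts are a description. The ESC lists, with 54528 and 42092 regions, are longer than those of the other stages.

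At gained regions H3K27ac was called more often in both CM libraries than in both MES libraries. It was called at 26.9% and 10.4% of them in MES replicates 1 and 2, at 32.9% and 24% in CP, and at 48.9% and 50.0% in CM. Over all joined regions the shares were 71% and 52.5% in MES and 46.3% and 47.4% in CM, so the CM share at gained regions was near that of all regions and the MES share was below it. RNAPII Ser5P was called at 1.65% and 3.76% in MES, 9.46% and 7.53% in CP, and 9.37% and 14.2% in CM, again without overlap of MES and CM, beside 39.1% and 35.5% of all joined regions in MES and 23.9% and 21.1% in CM. H3K4me1 was called at 47.2%, 27.4% and 25.0% in MES and at 44.6%, 61.5% and 37.4% in CM, and these ranges overlapped. All joined regions had 69.5%, 56.9% and 54.3% in MES and 41.4%, 58.9% and 39.2% in CM. H3K27me3 was rare at every stage, at 4.50%, 3.03% and 2.02% in MES and 2.39%, 1.74% and 1.19% in CM, beside 24.1%, 20.5% and 13.6% of all joined regions in MES and 18%, 14.1% and 4.45% in CM.

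At lost regions the order was the reverse for H3K27ac and RNAPII Ser5P. H3K27ac was called at 66.5% and 46.7% in MES, 26.0% and 16.5% in CP, and 9.85% and 11% in CM. The MES shares lay below those of all joined regions given above by less than the gap between the 2 MES libraries, and the CP and CM shares lay below the 51% and 41% in CP and the 46.3% and 47.4% in CM. RNAPII Ser5P was called at 8.29% and 13.3% in MES and at 2.44% and 1.56% in CM, below the share of all joined regions in every one of these libraries. H3K4me1 was called at 88.2%, 75.3% and 75.1% in MES, at 81.7%, 56.2% and 38.3% in CP, and at 25.8%, 28.7% and 31.6% in CM. Its MES shares lay above those of all joined regions in each library, and its CM shares below them. H3K27me3 was called at 25.6%, 23.0% and 17.5% in MES, 32.3%, 27.2% and 22.1% in CP, and 29.1%, 23.3% and 9.56% in CM, and the MES and CM values overlapped. All joined regions had 26.9%, 22.3% and 16.1% in CP, and the lost share was above that of all joined regions in each of these MES, CP and CM libraries.

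Over kept regions some marks also differed between the MES and CM lists. H3K27ac was called at 93.0% and 74.3% of kept regions in MES and 69.5% and 69.3% in CM, and RNAPII Ser5P at 68.5% and 59.4% in MES and 42.1% and 35.2% in CM. H3K27ac lists held 62772 and 25170 regions in MES and 30608 and 33211 in CM. RNAPII Ser5P lists were shorter in CM (11332 and 12805 regions) than in MES (21031 and 37721), and their part in these shares was not tested. With full lists the mean RNAPII Ser5P share, CM minus MES, differed by 9.09 points at gained and -8.78 points at lost regions. With equal list sizes the values were 10.6 and -2.69 points.

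The difference between stages was tested by an exact two-sided permutation of the MES and CM libraries for 4 targets in each class, 8 tests in all. For H3K27ac the difference of the mean shares, CM minus MES, was 30.9 percentage points at gained and -46.2 points at lost regions (exact permutation, p = 0.333 for each, the smallest that 2 against 2 libraries allow). For RNAPII Ser5P it was 9.09 points at gained and -8.78 points at lost regions, with the same p. For H3K4me1 it was -50.9 points at lost regions (exact permutation, p = 0.1, the smallest for 3 against 3) and 14.7 points at gained regions (p = 0.3). For H3K27me3 it was -1.41 points at gained (exact permutation, p = 0.2) and -1.37 points at lost regions (p = 0.9). No p passed 0.05 and the adjusted values were 0.381 or 0.9, so none of these differences rests on a test. The MES and CM libraries separated for H3K27ac and RNAPII Ser5P in both classes and for H3K4me1 at lost regions. They overlapped for H3K27me3 in both classes and for H3K4me1 at gained regions.

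**Figure D3:**
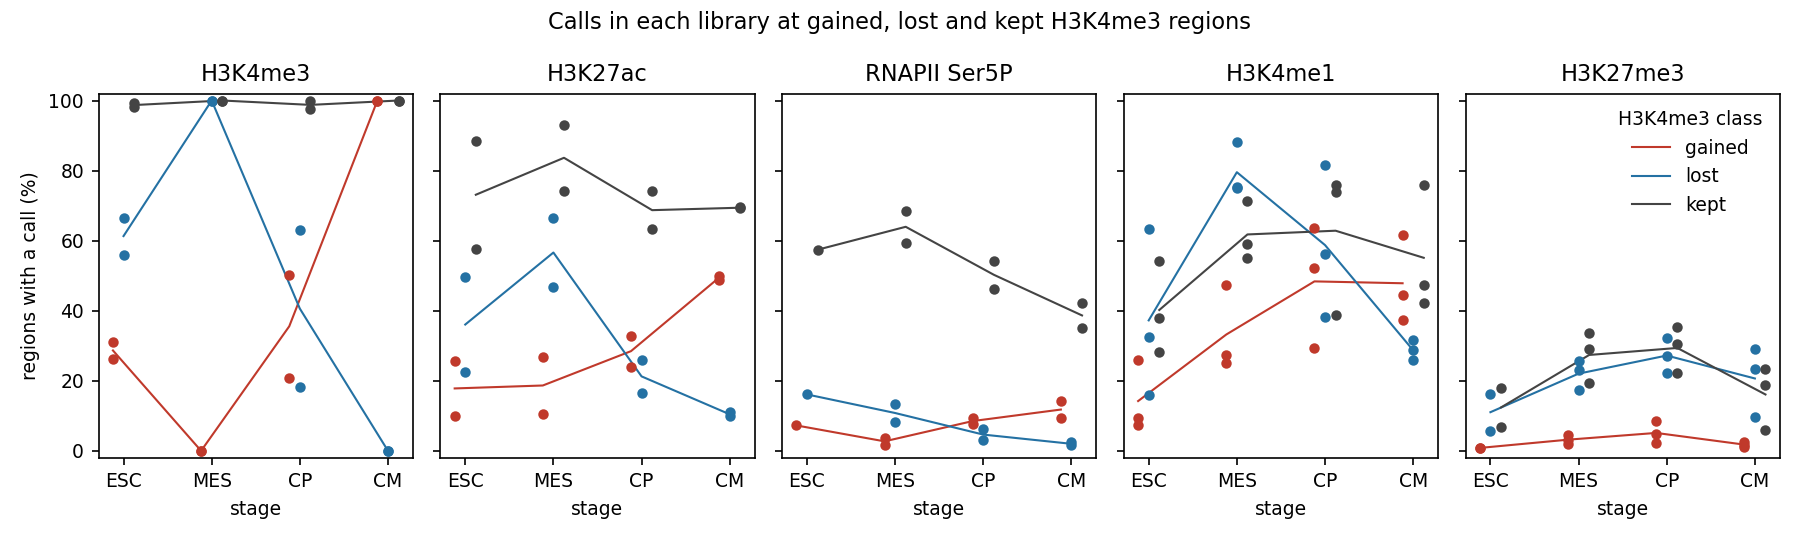
Share of gained, lost and kept H3K4me3 regions (y axis, percent) with a call of each of 5 targets at each stage (x axis). Each point is 1 library and each line joins the means of a stage. H3K27ac crosses between MES and CM, from 26.9% and 10.4% to 48.9% and 50.0% at gained regions and from 66.5% and 46.7% to 9.85% and 11% at lost regions, and the H3K4me3 panel is fixed at 0% or 100% in MES and CM by the rule.

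Region by region, the calls of the other marks were counted as switched on (no MES library and every CM library) or switched off (the reverse). H3K27ac was called in no MES and in both CM libraries at 281 gained regions, 25.8%, against 3.22% of all joined regions. The opposite switch, from both MES to no CM library, held at 18 gained regions (1.65%), against 11% of all. At lost regions H3K27ac went from both MES to no CM library at 332 (32.4%), and appeared at 1. Leaving out a replicate of H3K27ac or RNAPII Ser5P removed its MES and CM libraries of that number together. Without H3K27ac replicate 1 the share that switched on at gained regions was 43%, and over all joined regions 9.02%. The share that switched off at lost regions was 57% without H3K27ac replicate 2 (29.4% of all joined regions). It was 20.8% when H3K4me3 MES replicate 1 was left out (7.90%).

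RNAPII Ser5P went from no MES to both CM libraries at 70 gained regions, 6.43%, against 0.716% of all joined regions. This share was 12.3% without RNAPII Ser5P replicate 1 (2.53% of all). It was 3.86% without H3K4me3 CM replicate 1 (0.652%) and 2.67% without H3K4me3 CM replicate 2 (0.753%). At the same regions H3K27ac and RNAPII Ser5P both appeared at 36 (3.31%, against 0.181% of all), and H3K27ac appeared with no RNAPII Ser5P in any CM library at 195 (17.9%, against 2.52%). RNAPII Ser5P went from both MES to no CM library at 34 lost regions, 3.32%, which is below the 9.31% of all joined regions. Mixed regions had this switch at 1.56%. Only regions with RNAPII Ser5P in both MES libraries could switch off, which were 40 lost regions (3.9%) and 9985 of all (31.6%). The switch held at 34 of those 40 and at 2939 of those 9985. RNAPII Ser5P was called in neither stage at 826 lost regions (80.6%), against 54.4% of all joined regions, 87.4% of mixed and 27% of kept regions. The share that switched off was 12.3% and 7.32% without RNAPII Ser5P replicate 1 and 2 (17.0% of all in each). It was 2.05% and 2.09% without H3K4me3 MES replicate 1 and 2 (10.9% and 9.20% of all).

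H3K4me1 was gained as well, from no MES to all 3 CM libraries, at 109 gained regions (10.0%), against 2.55% of all joined regions. It was lost, from all 3 MES to no CM library, at 337 lost regions (32.9%), against 10.5%. H3K27me3 appeared, from no MES to all 3 CM libraries, at none of the gained and none of the lost regions, and at 20 (0.0633%) of all. It was in no MES and no CM library at 1023 gained regions (93.9%), against 72.6% of all and 84.3% of mixed regions. At lost regions it was in all MES and all CM libraries at 84 (8.20%), against 3.86% of all. H3K27me3 CM replicate 3 lists 2929 regions, beside 20484 and 11925 for replicates 1 and 2, so a call in all 3 CM libraries is limited by that list. H3K27me3 was in at least 1 CM library at 305 lost regions (29.8%, against 18.8% of all joined regions), and in at least 1 MES library at 268 (26.1%, near the 24.9% of all).

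Combined, 325 gained regions (29.8%) carried no H3K27ac, RNAPII Ser5P or H3K27me3 call in any MES or CM library, against 13.4% of all joined regions and 1.51% of kept regions. The same held for 109 lost regions (10.6%). H3K27ac switched on at 147 of 399 gained regions of at least 500 bases (36.8%) and at 134 of 690 shorter ones (19.4%), against 1.33% and 6.32% of all joined regions of those lengths. RNAPII Ser5P switched on at 59 of the 399 (14.8%), against 0.866% of all of that length. Of the 332 lost regions whose H3K27ac switched off, 40 (12%) had H3K27me3 in any CM library, against 23.2% of all joined regions with that switch. H3K4me1 was in no CM library at 171 (51.5%, against 44.9%), and H3K27ac was already in no CP library at 194 (58.4%, against 54.5%), and both are near the share of all.

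Gained and lost regions were placed relative to kept regions. Of the lost regions 165 (16.1%) were within 1 kb and 400 (39.0%) within 5 kb of a kept region, with a median distance of 8420 bases. Of the gained regions 80 (7.35%) were within 1 kb and 165 (15.2%) within 5 kb, with a median distance of 33800 bases. Counting runs of at least 3 regions less than 50 kb apart, lost regions formed 20 runs with 69 regions and gained regions 8 runs with 24 regions. The lost runs with the most regions held 5 each, at chr5:120106676-120131525 and chr7:51848151-51870975. H3K27me3 was in all 3 MES libraries at 4 regions of the chr5 run and at 0 of the chr7 run. Neither run had an H3K27ac switch. Of the mixed regions 19.9% were within 1 kb and 36.4% within 5 kb, with a median distance of 11200 bases, so the lost values were near those of the mixed regions. No test was made of these positions.

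At the 17039 kept regions, width and peak height rank were compared between MES and CM with limma, fitted over all kept regions. Width was taken as log2 of the bases called, centred on the median of each library, and height as its rank among the kept regions of the same library. No region passed an adjusted p of 0.05 for width (limma, Benjamini-Hochberg, lowest adjusted p 0.0911), and 1581 (9.28%) had an unadjusted p under 0.05. No region passed for rank either (limma, lowest adjusted p 0.0531), and 4437 (26.0%) had an unadjusted p under 0.05, of which 2128 were higher and 2309 lower in CM. The rank result lay close to the threshold. With rank percentiles in place of normal scores limma called 702 regions, 286 higher and 416 lower, and with regions under 500 bases left out it called 529. For width the count was 856 without CM replicate 1 and 366 without CM replicate 2, where the lone CM library is assumed to vary like the MES pair.

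The width difference, CM minus MES, lay between -0.82 and 0.57 on the log2 scale for the central 90% of regions, and the rank difference between -20.0 and 19 percentile points. Both CM ranks were above both MES ranks at 5074 regions (29.8%) and below at 5023 (29.5%). For centred width the same counts were 3753 (22%) and 3044 (17.9%). Where both measures separated, they mostly had the same sign, with 2034 regions wider and higher in rank in CM and 1820 narrower and lower, against 389 wider and lower and 258 narrower and higher. Width and height come from the same calls in each library, so these counts are not independent.

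**Figure D4:**
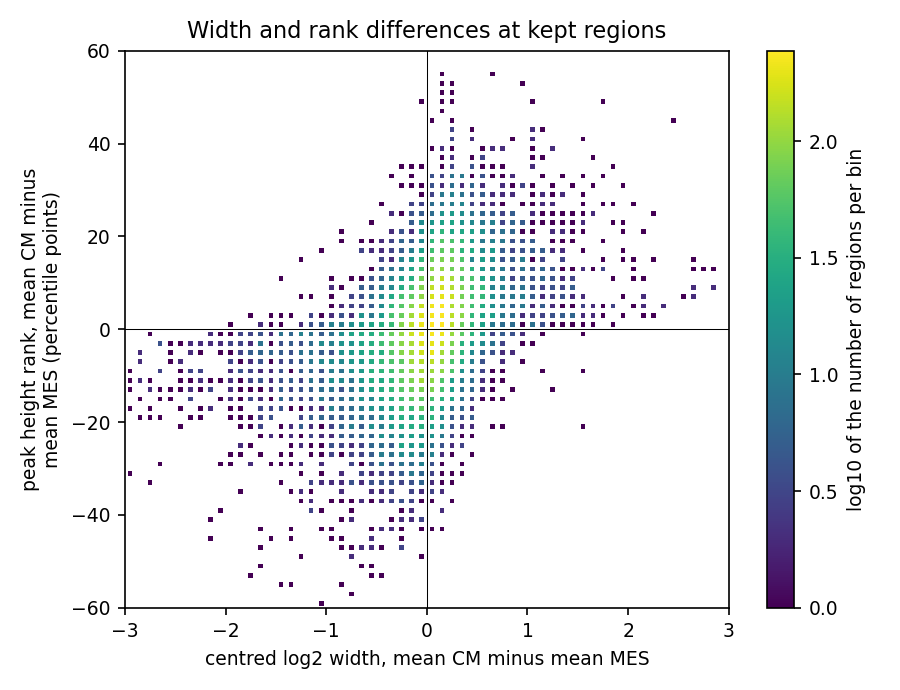
Kept regions binned by the difference in centred log2 width (x axis) and in peak height rank in percentile points (y axis), mean CM minus mean MES, with the colour giving log10 of the regions per bin. The axes hold 17009 of the 17039 kept regions, most of them near 0 on both axes, and the 30 others lie outside.

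The kept region with the largest positive rank difference was chr11:100828626-100832525. Its ranks were 33.6 and 32.1 in MES, 55.1 and 54.8 in CP, and 99.1 and 93.8 in CM (limma adjusted p 0.0531). Its widths were 1750 and 1725 bases in MES and 3900 and 3775 bases in CM. H3K27me3 was called there in all 3 MES and all 3 CP libraries and in no CM library, while RNAPII Ser5P appeared in both CP and both CM libraries. The same order of H3K27me3 calls, all MES, all CP and no CM, held at chr10:81021726-81024100, chr5:136363351-136365225 and chr6:108608226-108614000. The region at chr3:81736176-81737150, with ranks of 28.4 and 36.1 in MES and 80.7 and 92.3 in CM, had no H3K27me3 call at any stage, and its RNAPII Ser5P, in both MES libraries, was in no CP or CM library. At chr5:136363351-136365225 the ranks were 11.1 and 8.31 in MES, 24.6 and 12.8 in CP, and 61 and 63.4 in CM. At chr6:108608226-108614000 the CP ranks of 36.7 and 36.4 lay below the MES ranks of 48.4 and 43.1, and the CM ranks were 97.6 and 98.2. At chr13:51940501-51945325 most of the difference was there in CP, with ranks of 44.9 and 44.5 in MES and 98.0 and 78.2 in CP, and H3K27me3, in all 3 MES libraries, was in no CP or CM library.

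The largest negative rank difference was at chr12:85980526-85986525, 6000 bases long, with ranks of 76.3 and 90.9 in MES, 51.3 and 34.9 in CP, and 14.1 and 7.62 in CM (limma adjusted p 0.0531). Its widths were 5275 and 6000 bases in MES and 1875 and 1050 bases in CM. At chr14:122871101-122882350, 11250 bases long, ranks were 80.8 and 84.9 in MES and 17.2 and 13.0 in CM. H3K27ac went from both MES libraries to no CP or CM library, and H3K27me3 was called in every MES, CP and CM library. At chr6:52259476-52267825 ranks were 76.3 and 72.9 in MES, 22.3 and 14.0 in CP, and 16.5 and 7.04 in CM, with H3K27me3 in 2 of 3 MES and in all CP and CM libraries. The region at chr2:91769976-91774475 differed late, with ranks of 99.7 and 99.2 in MES, 99 and 96.6 in CP, and 50.6 and 36.3 in CM, and it had no H3K27me3 call at any stage. At all of these regions both CM ranks lay below both MES ranks, which is how they were chosen.

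In width, the largest positive difference was at chr6:99153151-99156700, with 300 and 300 bases in MES, 3250 and 3375 in CP, and 3125 and 3350 in CM (limma adjusted p 0.0911). Its full CM width was thus reached in CP, in the same libraries in which its rank was 21.3 and 30.3 against 2.33 and 0.936 in MES. The region at chr1:139794776-139797750 was wide in CM only, with 200 and 425 bases in MES, 450 and 600 in CP, and 2400 and 2925 in CM, with H3K27ac in both CM libraries and in no earlier one. The largest negative difference was at chr4:139387151-139390275, with 3125 and 2975 bases in MES and 225 and 25 bases in CM, with H3K27me3 in every MES, CP and CM library. The region at chr11:84756351-84759275 had 2800 and 2925 bases in MES and 275 and 100 bases in CM, and H3K27ac was in both MES and in no CM library. At 4 of the 6 largest negative differences CM replicate 2 called 25 bases, the width of 1 bin, so these regions are close to the lost class. Some of the 6 largest positive differences also started near 1 bin. At chr8:71852801-71853150 the widths were 25 and 25 bases in MES and 175 and 325 in CM. At chr11:20461151-20461675 they were 25 and 250 bases in MES and 475 and 500 in CM.

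The 300 regions with the largest positive and the 300 with the largest negative rank difference, among those whose MES and CM ranks did not overlap, were described as higher-ranked and lower-ranked regions by the marks that the choice did not use. The median rank of the higher-ranked regions was 44.9 and 42.9 in MES, 56.2 and 57.1 in CP, and 76.8 and 77.7 in CM. For the lower-ranked regions it was 75.7 and 78.5, then 59.0 and 52.5, then 42.6 and 40.3. The regions were chosen for their MES and CM ranks, so a CP median between the 2 is no finding.

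At the higher-ranked regions H3K27me3 was called at 44.7%, 40.0% and 28.3% in MES and at 10.7%, 6.67% and 4.00% in CM, while over all kept regions the values were 33.7%, 29% and 19.4% in MES and 23.4%, 18.8% and 6.06% in CM. H3K27me3 went from all MES to no CM library at 54 of the 300 (18%), against 3.39% of kept regions. With H3K27me3 replicate 3 left out these shares were 28.7% and 7.68%. H3K27ac was called at 93.7% and 93.3% of them in CM, against 69.5% and 69.3% of all kept regions, and RNAPII Ser5P at 65.0% and 58%, against 42.1% and 35.2%. RNAPII Ser5P appeared at 15 (5.00%), against 0.516% of kept regions. It went from both MES to no CM library at 22 (7.33%), against 15.9% of kept regions. In MES it was called at 71.3% and 61% of the higher-ranked regions, so its MES and CM shares overlapped. H3K27ac was called in MES at 93.3% and 72% of them, near the 93% and 74.3% of all kept regions.

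At the lower-ranked regions H3K27ac was called at 97.3% and 90% in MES and at 58.7% and 60.7% in CM, and it went from both MES to no CM library at 76 (25.3%), against 7.69% of kept regions. RNAPII Ser5P was called at 87.0% and 79.0% in MES and 39.0% and 24.3% in CM, and went from both to neither at 112 (37.3%), against 15.9%. H3K27me3 was called at 31.0%, 24.7% and 16.0% in MES and at 33.7%, 32% and 15.3% in CM, and was in all MES and all CM libraries at 32 (10.7%), against 5.41% of kept regions. In CM all 3 of its shares at the lower-ranked regions lay above the share of all kept regions in the same library. H3K4me1 was called in MES at 73%, 55.3% and 46.7% of higher-ranked and 82.3%, 72.3% and 68% of lower-ranked regions. In CM it was called at 51.3%, 82.0% and 39.7% of higher-ranked and 51.3%, 78.0% and 49% of lower-ranked regions. Over all kept regions H3K4me1 was called at 71.4%, 58.9% and 55% in MES and at 47.2%, 75.8% and 42.3% in CM.

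**Figure D5:**
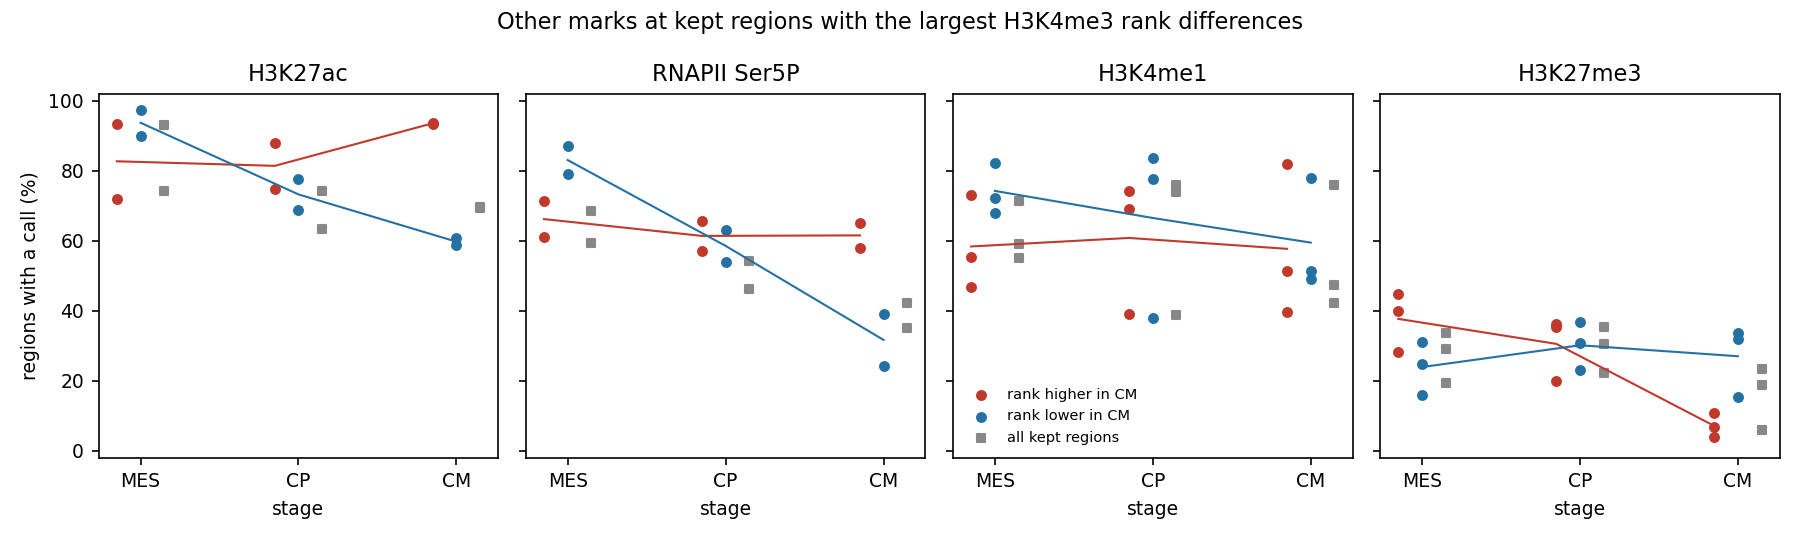
Share of regions (y axis, percent) with a call of 4 other targets at MES, CP and CM (x axis), for the 300 kept regions with the largest positive H3K4me3 rank difference, the 300 with the largest negative difference, and all kept regions. Each point is 1 library and lines join stage means. H3K27me3 is between 4.00% and 10.7% in CM at the higher-ranked regions, and RNAPII Ser5P is at 39.0% and 24.3% in CM at the lower-ranked regions.

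H3K27me3 was common at the 300 kept regions with the largest negative width difference. It was in all MES and all CM libraries at 82 of them (27.3%), against 5.41% of kept regions, and in any MES library at 176 (58.7%), against 34.6%. H3K27ac went from both MES to no CM library at 89 (29.7%), against 7.69%. Their median widths were 1475 and 1350 bases in MES, 1050 and 425 in CP, and 600 and 200 in CM, and replicate 2 called the narrower width at both CP and CM. The 300 with the largest positive width difference had median widths of 375 and 550 bases in MES and 987.5 and 800.0 in CM. H3K27ac appeared, from no MES to both CM libraries, at 23 of them (7.67%), against 0.440% of kept regions, and RNAPII Ser5P at 20 (6.67%), against 0.516%. In CM, H3K27ac was called at 68.7% and 68% of them, near the 69.5% and 69.3% of all kept regions. RNAPII Ser5P was called in CM at 30% and 30%, below the 42.1% and 35.2% of all kept regions. It was in no MES or CM library at 173 (57.7%), against 27% of kept regions.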

How the data were processed

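ChIP-seq of 5 targets was used in 46 samples, each with a list of enriched regions. The other 8 of 54 samples are whole-cell extract and were not analysed here. Reads were aligned with Bowtie to mm9, per the submitters' processing notes. The region caller is not given in the sources used here. Height of each peak and its totals of target and background, as the authors deposited them, were read as signal in bins of 25 bases, on no common scale, and no list has a height above 400. Lengths, as deposited by the authors, are numbers of bases (unit other). Read depth is not given, so no counting interval was made. Positions are printed from 1.

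The classes, regions and comparisons were chosen with earlier results of these data known. Regions named are the 8 highest and 5 longest gained and lost regions, and the 6 largest rises and falls in width and in rank at kept regions, taken without a passed test since none passed. Not every region named by this rule is described. Gene lists were laid out for an annotation of mm9 and were not used. Kept regions were fitted with limma 3.58.1 in R 4.3.3, with normal scores for ranks and Benjamini-Hochberg adjustment, after a test on simulated data. Labels call the replicates biological, and p-values measure only the spread between these libraries. Shares were compared by exact permutation. Tables and plots used Python 3.11.15, numpy 2.4.6, pandas 2.3.3 and matplotlib 3.10.9. Alternatives were equal list sizes, joining of regions closer than 1 kb, a 500-base minimum, a target over background of at least 10 and an overlap of 50%. Each MES, CM and CP library of H3K4me3 was also left out. For the other marks, each replicate number was left out at all stages together. Further alternatives were a replicate block and other scales of width and height. The ratio of 10 was chosen after seeing the data. So were, for the CP and other-mark shares, the 1 kb joining and the leaving out of libraries other than H3K27me3 replicate 3.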

Additional observations from a re-analysis of the deposited data

How the results depend on the processing

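Of 207 values under alternatives, 143 stayed within the limit set for them, 62 moved and 2 reversed. The reversals were H3K4me1 at gained regions (CM minus MES 14.7 points, -7.66 with a target over background of at least 10) and H3K27me3 at lost regions (-1.37 points, 1.90 without H3K27me3 replicate 3). The cause was not tested.

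Gained regions numbered 315 without regions under 500 bases, 335 at a ratio of at least 10 and 1328 to 4237 with 1 library left out. Lost regions numbered 511 at that ratio and 1059 to 7829 with 1 left out, and kept regions 17096 to 17989. The CP shares with 1 library left out ranged over 8.24% to 50.2% (gained) and 6.58% to 62.9% (lost). Over all joined regions they ranged over 57.3% to 70.9%. Width calls at kept regions were 412 with a replicate block (135 wider, 277 narrower), 2 without centring, 3 after quantile normalization and 0 to 856 with 1 library left out. Rank calls were 315 at regions with 1 listed region in each library, 702 on rank percentiles, 9 on total target signal, 529 without short regions, 311 at the higher ratio, and 0 with any 1 library left out or with the block. Same-numbered libraries share only a number, and their deviations correlated at 0.359 for width and 0.0913 for rank.

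With equal list sizes the differences were -0.0643 (H3K27me3, gained), -35.5 (H3K27ac, lost), -2.69 (RNAPII Ser5P, lost) and -44.6 points (H3K4me1, lost). RNAPII Ser5P then switched off at 1.62% of lost regions, against 7.7% of all joined regions. Without regions under 500 bases the differences were -3.28 (H3K27me3, gained), 18.9 (RNAPII Ser5P, gained), -15.7 (RNAPII Ser5P, lost) and -37.2 points (H3K4me1, lost). RNAPII Ser5P switched on at 16.5% of gained regions (0.853% of all joined regions) and off at 8.79% of lost regions (14.5% of all). At the higher ratio the differences were -2.79 (H3K27me3, gained), -17.1 (RNAPII Ser5P, lost) and -24.7 points (H3K4me1, lost). The RNAPII Ser5P switches were 11.6% at gained (0.724% of all) and 9.59% at lost regions (14.6% of all). The ranges that follow leave out either 1 H3K4me3 library, or 1 replicate number of the mark itself in MES and CM together. H3K27ac ranged over 17.3 to 39.7 points at gained and -56.7 to -31.5 at lost regions. Its switches were 18.4% to 43% and 20.8% to 57%, against 2.11% to 9.02% and 7.9% to 29.4% of all joined regions. RNAPII Ser5P ranged over 3.92 to 10.5 and -11.7 to -5.85 points. Its switches were 2.67% to 12.3% and 2.05% to 12.3%, against 0.652% to 2.53% and 9.2% to 17% of all joined regions. H3K4me1 ranged over 4.44 to 23.3 and -54.5 to -39.0 points, and H3K27me3 over -3.01 to -1.06 and -4.02 to 1.90.

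The larger overlap leaves the 3 classes as they are by construction. Read depth is unknown, and the minimum listed height, which differs between lists, limits every absence of a call.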
